A study of Equus asinus with 3 samples.

Results

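The synaptonemal complex is a protein ladder that forms between paired homologous chromosomes in the first meiotic prophase and holds them together while DNA breaks are repaired by recombination. Its lateral elements run along each chromosome, transverse filaments cross the gap between them, and a central element joins the filaments in the middle. The complex is taken apart before the meiotic divisions, and in the testis its genes are known for their activity in spermatocytes; the haploid spermatids that follow do not assemble it. How the transcripts of 8 of these genes were distributed along the germ stages of the donkey (Equus asinus), and which of them remained in spermatids, was examined in single-cell RNA data.

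The 8 genes were chosen by name, as the features SYCP1, SYCP2, SYCP3, SYCE2, SYCE3, MEIOB, TEX15 and PSMC3IP out of 34267 features in the files, and all 8 were found. Of these, 7 carry their symbol in the files, and PSMC3IP is listed there under the locus identifier LOC106826281, which the RefSeq gene table pairs with that symbol. By that table SYCP2 overlaps PPP1R3D and FAM217B, SYCP3 overlaps CHPT1, SYCE2 overlaps GCDH and PSMC3IP overlaps MLX, while the other 4 genes overlap none. Whether the counting used strand is not stated, so reads of overlapping genes cannot be told apart with certainty.

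There was 1 library each of testis, of the caput (head) of the epididymis and of the corpus (body) of the epididymis, the duct through which sperm leave the testis. The tissue came from 3 sexually mature male donkeys, with no genotype or treatment given, and the sources used here do not say which animal gave which library. All 3 tissues had been stored for at most 48 h, were digested with collagenase and DNase I (15 min, 37 °C) and were not described as sorted; the labels call the testis cells germ cells and the epididymal cells somatic cells. With 1 library per tissue there is no replicate and no test over samples: levels are given as CPM, the unique molecular identifiers (UMIs) of a gene in the summed counts of a cell class scaled so that the class totals 1e6, with 95% intervals that cover counting error only.

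Depth differed between the tissues: there were 47686179 UMIs over 8610 barcodes from testis, 13203203 over 9478 from caput and 4142512 over 9611 from corpus, with medians of 4691.5, 1145 and 371 UMIs in the cells kept. Cells were clustered without the 8 genes and without 49 other meiosis genes, and clusters were named from marker lists that hold none of them. In testis this gave 2239 spermatocyte-like cells, 2237 round spermatid-like cells, 555 elongating spermatid-like cells and 107 cells of somatic types, and no cluster reached the name of spermatogonia. All 3 spermatocyte-like clusters scored highest on the markers of late spermatocytes and division, with mean log2 ratios over the median cluster of 1.07, 1.02 and 0.94 in clusters 7, 1 and 5, against 0.72, 0.65 and 0.90 on the markers of prophase. No cluster was led by the prophase markers, so a level given for spermatocytes is that of these clusters, and early prophase was not seen as a cluster of its own. A further 2950 testis cells lay in clusters 0, 3, 10 and 6, which no list could name and which were placed between spermatocytes and spermatids by the ratio of their spermatid to spermatocyte markers. That ratio sums the markers of prophase and of division, so it does not rank the spermatocyte-like clusters in time. Cluster 5, after clusters 7 and 1 in this order, had the highest mean on the prophase markers. The somatic cells also held germ RNA. Spermatocyte markers summed to 1749 CPM in fibroblast-like, 2982 CPM in T or NK-like and 6231 CPM in macrophage-like cells. They summed to 14472 CPM in cluster 7, the first of the spermatocyte-like clusters by that ratio. A gene's level in somatic cells is therefore used as the background for its level in germ cells. This background is a mixture of unlike cells: the 21 macrophage-like cells held the highest levels of SYCP1, SYCP2 and SYCE2 in it, and the level without them was 66.6 CPM for SYCP1, 92.3 CPM for SYCP2 and 241 CPM for SYCE2, against 92.6, 158 and 393 CPM with them. They also held 13 of the 21 somatic UMIs of SYCE3, 4 of the 8 of PSMC3IP and 2 of the 5 of TEX15. The level of SYCE3 without them was 41.0 CPM. SYCP3 and MEIOB had 0 UMIs in these cells.

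Along the germ stages the 8 genes did not move together. SYCP2 and PSMC3IP were lower in spermatids than in spermatocytes by more than 2-fold, SYCP3 was higher by more than 2-fold, and SYCP1, SYCE2, SYCE3, TEX15 and MEIOB did not pass that threshold. A call needed both ends of the ratio's interval beyond 2-fold, and at least 50 UMIs on the higher side. Over all 14958 features with that many UMIs, 34.1% were called higher and 13.8% lower in spermatid-like cells (round and elongating together), so that 1 of 8 higher and 2 of 8 lower is not far from the background. The median log2 ratio was -0.34 for the 8 genes and 0.23 for all those features.

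**Figure D1:**
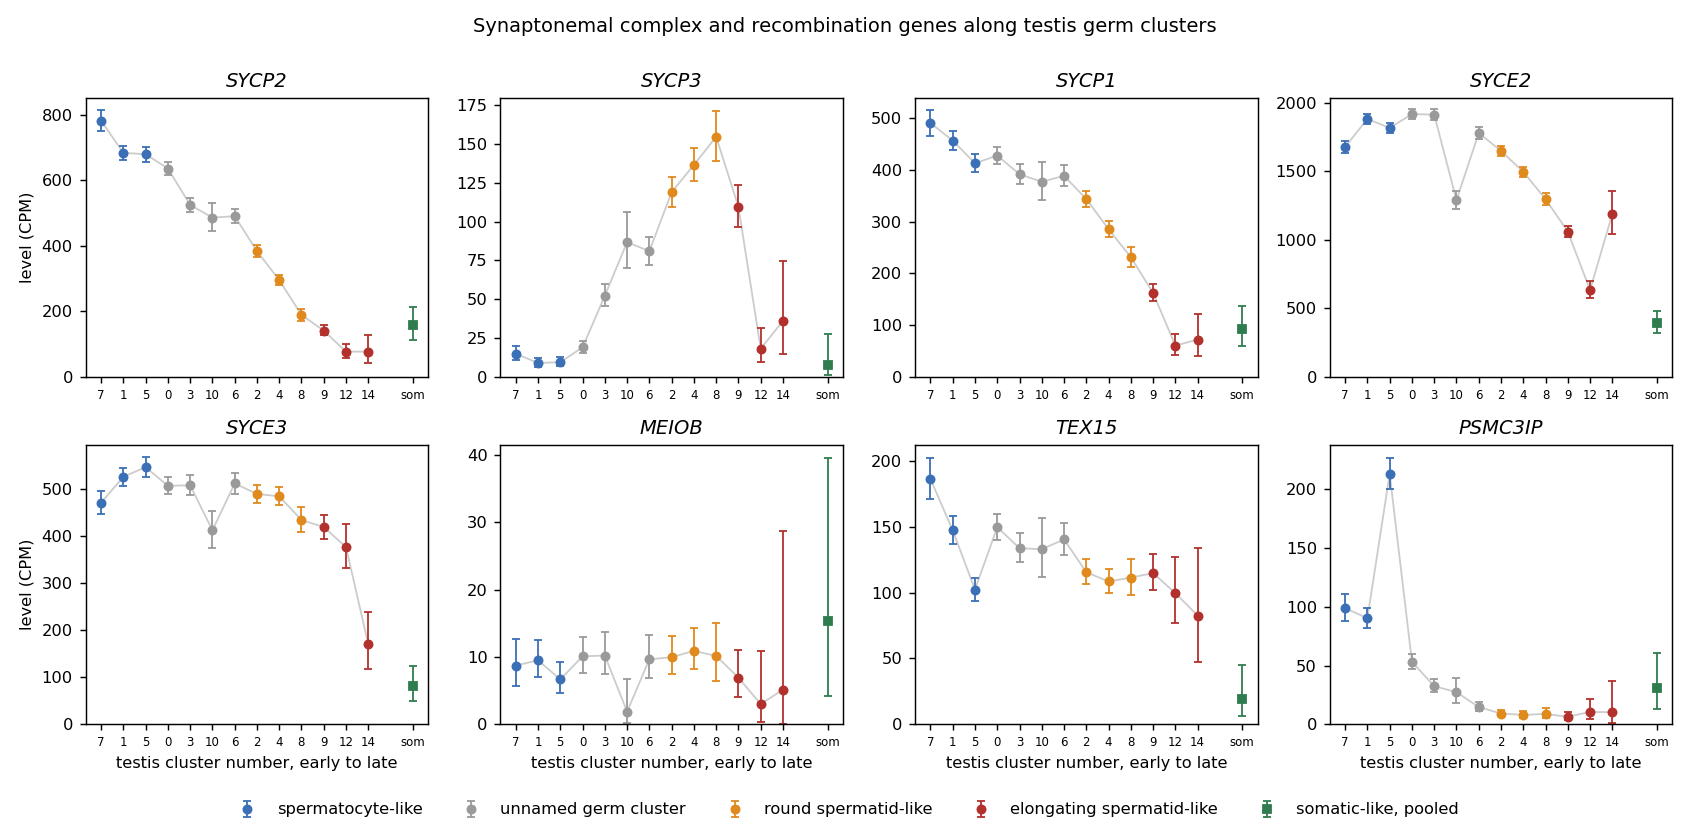
Level (CPM, vertical axis, from 0 and scaled for each gene) of the 8 genes in 13 testis germ clusters and in the pooled somatic cells (squares, "som"). Germ clusters are ordered from low to high spermatid over spermatocyte markers, which the axis calls early to late. Bars are 95% Poisson intervals and colours give the class of the cluster. SYCP2 and SYCP1 are highest at the start of the order, SYCP3 peaks at 154.5 CPM in round spermatid-like cluster 8, and PSMC3IP peaks at 213 CPM in spermatocyte-like cluster 5.

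Of the lateral element genes, SYCP2 encodes a core of the chromosome axis and is the scaffold on which SYCP3 is loaded in the mouse. It had 705 CPM in spermatocyte-like, 312 CPM in round spermatid-like and 125 CPM in elongating spermatid-like cells, against 158 CPM in somatic cells. Its level was 782 CPM in cluster 7, the first in the marker order. It was lower at nearly each later position, down to 77.0 CPM in cluster 12 and 77.3 CPM in cluster 14. The ratio of spermatids over spermatocytes was 0.386 (0.373 to 0.401, from 4284 and 9544 UMIs). SYCP2 was lower in round spermatids than in spermatocytes, at a ratio of 0.442 (0.426 to 0.459), and lower again in elongating than in round spermatids, at 0.3997 (0.360 to 0.443). From spermatocytes to round spermatids 1 of the 8 genes was called higher and 2 lower, beside 31.5% and 13.1% of 14036 features. From round to elongating spermatids 0 of the 8 were called higher and 1 lower, SYCP2, beside 8.89% and 2.86% of 11695 features. Its level in elongating cells lay within the interval of the somatic cells (114 to 215 CPM), so no SYCP2 above background was detectable there. FAM217B, which overlaps it, had a spermatid over spermatocyte ratio of 0.788.

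SYCP3, the other lateral element gene, whose protein coats the axis of each chromosome, ran the opposite way, higher in the later stages. It had 10.5 CPM in spermatocyte-like, 133 CPM in round spermatid-like and 86.8 CPM in elongating spermatid-like cells, against 7.71 CPM in somatic cells, which rests on 2 UMIs. The spermatid and spermatocyte intervals were far apart: 1935 UMIs in spermatids and 142 in spermatocytes gave a ratio of 11.7 (9.89 to 14.01). With the unnamed germ clusters placed by the marker order, an alternative chosen after seeing the data, it was 3.97 (3.67 to 4.30), still beyond 2-fold. All of them fell on the spermatocyte side, so none was added to the spermatids. In spermatocytes SYCP3 did not stand above the somatic level, with a ratio of 1.36 (0.370 to 11.3). Along the order it held 14.9, 8.96 and 9.43 CPM in spermatocyte-like clusters 7, 1 and 5, and 19.03, 52.3, 86.7 and 80.9 CPM in the unnamed clusters 0, 3, 10 and 6. It then reached 119, 137 and 154.5 CPM in round spermatid-like clusters 2, 4 and 8. Among elongating clusters it was at 109 CPM in cluster 9, which held 268 of their 287 UMIs, at 18.1 CPM in cluster 12 and at 36.1 CPM in cluster 14. Round spermatid-like cells held 55.4% of all SYCP3 UMIs of the testis and 26.4% of all its UMIs. CHPT1, which overlaps SYCP3 and encodes an enzyme of phospholipid synthesis, had a ratio of 0.792 in the same comparison. Over 17 testis clusters, not germ clusters alone, its profile had a Pearson correlation of -0.05 with that of SYCP3.

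The transverse filament gene SYCP1, whose protein zips the paired axes together, was also highest in cluster 7, the first in the marker order, at 490 CPM. It had 448 CPM in spermatocyte-like, 299 CPM in round spermatid-like and 136 CPM in elongating spermatid-like cells, against 92.6 CPM in somatic cells. Its ratio of spermatids over spermatocytes was 0.591 (0.568 to 0.615) and that of elongating over round spermatids 0.456 (0.413 to 0.503); neither whole interval lay beyond 2-fold. Of the elongating clusters, cluster 9, with 367 of the 555 cells, was at 162 CPM (146.5 to 179), above the somatic interval of 59.3 to 138 CPM, while cluster 12 at 60.4 CPM and cluster 14 at 72.1 CPM lay inside it.

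The central element genes differed less between stages. SYCE2, part of the complex that fixes the filaments in the middle of the ladder, had 1812 CPM in spermatocyte-like, 1522 CPM in round spermatid-like and 983 CPM in elongating spermatid-like cells, against 393 CPM in somatic cells. Its ratio of spermatids over spermatocytes was 0.777 (0.763 to 0.792), less than a 2-fold difference in either direction. SYCE3, which recruits the other central element proteins to SYCP1 in the mouse, had 522 CPM in spermatocyte-like, 478 CPM in round spermatid-like and 396 CPM in elongating spermatid-like cells, against 81.0 CPM in somatic cells, and its ratio was 0.883 (0.854 to 0.912). The elongating clusters differed among themselves: SYCE2 was at 1061, 634 and 1190 CPM in clusters 9, 12 and 14, and SYCE3 at 420, 377 and 170 CPM. At cluster 10, placed sixth in the order, SYCE2 was at 1290 CPM, with 1915 CPM in cluster 3 before it and 1781 CPM in cluster 6 after it. Cluster 10 also stood apart in the share of UMIs from a list of very long genes, 0.474%, against 0.0810% in cluster 3 and 0.103% in cluster 6, and the part of this in the lower SYCE2 level was not tested.

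Among the recombination genes, PSMC3IP (HOP2), which works with MND1 to help the strand exchange protein DMC1 pair homologous DNA, had a narrow profile, with its highest cluster 32.6 times above its lowest. It stood at 98.7, 90.1 and 213 CPM in spermatocyte-like clusters 7, 1 and 5, at 53.1, 32.5, 27.3 and 14.8 CPM in unnamed clusters 0, 3, 10 and 6, and between 6.53 and 10.6 CPM in all 6 spermatid clusters. The peak in cluster 5, at 200.3 to 226 CPM, did not overlap the interval of any other cluster in the order. The ratio of spermatids over spermatocytes was 0.0612 (0.0509 to 0.0730, from 133 and 1871 UMIs). With the unnamed germ clusters all added to the spermatocytes by the marker order it was 0.101 (0.0839 to 0.1199). The level in spermatids, 8.46 CPM, was no higher than in somatic cells, at 30.9 CPM from 8 UMIs, or 20.5 CPM from 4 UMIs without the macrophage-like cells. Spermatocyte-like cells held 70.7% of the PSMC3IP UMIs of the testis and 28.8% of all its UMIs. MND1, its partner, was at 32.9 CPM in spermatocyte-like, 61.8 CPM in round and 51.4 CPM in elongating spermatid-like cells, against 30.9 CPM in somatic cells.

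TEX15, a large protein needed in mouse spermatocytes for recombination and in mouse germ cells for transposon silencing, had a shallow profile. It had 139 CPM in spermatocyte-like, 112 CPM in round spermatid-like and 110 CPM in elongating spermatid-like cells, against 19.3 CPM in somatic cells. Within spermatocytes it was at 186 CPM in cluster 7, 147 CPM in cluster 1 and 102 CPM in cluster 5, with no overlap of the 3 intervals. The ratio of spermatids over spermatocytes was 0.8005 (0.750 to 0.855), and that of elongating over round spermatids was 0.982 (0.872 to 1.10).

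MEIOB, a single-strand DNA binding protein that acts with SPATA22, was at the background throughout. It had 8.27 CPM in spermatocyte-like, 10.4 CPM in round spermatid-like and 6.05 CPM in elongating spermatid-like cells, against 15.4 CPM in somatic cells, which rests on 4 UMIs. Its ratio of spermatids over spermatocytes was 1.15 (0.890 to 1.48), and at 430 UMIs in the whole testis library no stage could be told from the somatic cells. SPATA22, named here after its values were seen, was at 72.2 CPM in spermatocyte-like, 9.82 CPM in round and 6.65 CPM in elongating spermatid-like cells, and at 11.6 CPM in somatic cells.

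**Figure D2:**
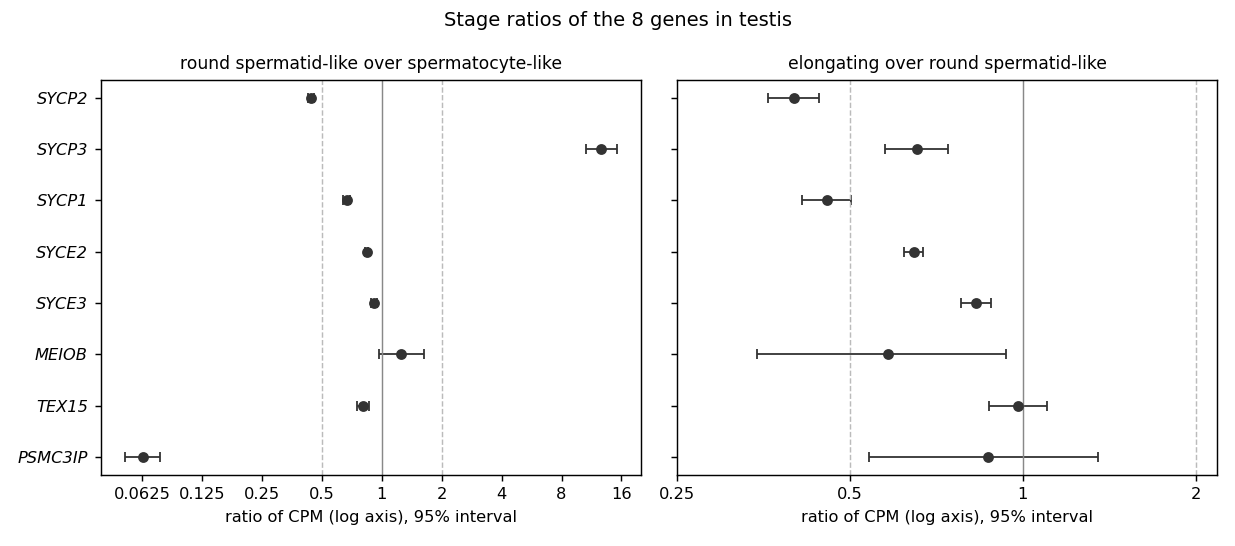
Ratio of CPM with its 95% interval (log axis) for the 8 genes, round spermatid-like over spermatocyte-like cells on the left and elongating over round spermatid-like cells on the right; the solid line marks no difference and dashed lines 2-fold. SYCP3 (12.6) and PSMC3IP (0.0629) lie far apart on the left, and on the right only the interval of SYCP2 lies wholly beyond 2-fold.

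Against the somatic cells of the same library, 6 of the 8 genes were called higher in spermatocytes and 0 lower, with 7 of the 8 having enough UMIs for a call, where 16.2% of 6456 features were higher and 6.04% lower, and the ratios of the 6 ran from 4.46 for SYCP2 to 7.22 for TEX15. SYCP3 was not called and MEIOB had too few UMIs. In spermatids 6 of the 8 had enough UMIs, of which 4 were called higher than in somatic cells and 0 lower, beside 16.1% and 4.44% of 9218 features: SYCP3 at 15.95 (4.41 to 132), SYCE3 at 5.69 (3.72 to 9.19), TEX15 at 5.78 (2.47 to 17.8) and SYCE2 at 3.58 (2.95 to 4.39). SYCP1 at 2.86 (1.92 to 4.47) and SYCP2 at 1.72 (1.27 to 2.40) were not called. PSMC3IP, at 0.274 (0.135 to 0.648), had 8 somatic UMIs and could not be called lower, and MEIOB had 4. Of the 8 genes only SYCE2, with 102, had at least 50 somatic UMIs, so no other gene could be called lower in either comparison. Each gene tested passed the minimum through its germ UMIs, so nothing is read from the counts of genes called, and the ratios are descriptions. Without the macrophage-like cells, an alternative chosen after seeing the data, SYCP1 was called higher in spermatids as well, at 3.97 (2.32 to 7.47), and SYCP2 was at 2.95 (1.87 to 4.99). The SYCP1 level in the elongating cells alone, 136 CPM, then lay above the somatic interval of 35.5 to 114 CPM, while that of SYCP2, 125 CPM, stayed inside its interval of 54.7 to 145.8 CPM.

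The share of cells with a UMI followed the levels. Each cell was thinned to 2000 UMIs, which left 2161 of 2239 spermatocyte-like, 2151 of 2237 round, 538 of 555 elongating and 72 of 107 somatic cells, with median depths of 5329, 4942, 5048 and 2442 UMIs before thinning. SYCE2 was found in 95.6% of spermatocyte-like, 93.7% of round and 84.6% of elongating cells, against 38.9% of somatic cells (27.6 to 51.1). SYCE3 was found in 60.6% of spermatocyte-like, 59.0% of round and 50.2% of elongating cells, against 13.9% of somatic cells (6.87 to 24.1). TEX15 was found in 22.7% of spermatocyte-like, 19.9% of round and 21.6% of elongating cells, against 2.78% of somatic cells (0.338 to 9.68). The shares of these 3 genes lay above the somatic interval at all 3 stages.

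SYCP3 was found in 2.22% of spermatocyte-like, 23.4% of round and 14.3% of elongating cells, against 1.39% of somatic cells (0.0352 to 7.497), so its share exceeded the background in both spermatid stages and not in spermatocytes. SYCP2 was found in 73.6% of spermatocyte-like, 42.6% of round and 18.0% of elongating cells, against 25.0% of somatic cells (15.5 to 36.6). SYCP1 was found in 56.3% of spermatocyte-like, 42.0% of round and 19.7% of elongating cells, against 15.3% of somatic cells (7.88 to 25.7). In elongating cells the shares of both genes lay inside the somatic intervals, although the SYCP1 level in elongating cluster 9 did not. PSMC3IP was found in 21.4% of spermatocyte-like, 1.67% of round and 1.30% of elongating cells, against 5.56% of somatic cells (1.53 to 13.6), and MEIOB in 2.13% of spermatocyte-like, 2.19% of round and 1.12% of elongating cells, against 1.39% of somatic cells. Spermatid shares of PSMC3IP, and those of MEIOB at each stage, were thus no more than background. Without thinning, SYCP3 was found in 5.90% of spermatocyte-like, 45.8% of round and 33.3% of elongating cells, against 1.87% of somatic cells, and PSMC3IP in 44.9% of spermatocyte-like, 4.47% of round and 4.14% of elongating cells, against 7.48% of somatic cells. The unthinned shares of the other genes, for spermatocyte-like, round and elongating cells against somatic cells, were 98.9%, 98.4% and 95.1% against 43.9% for SYCE2, 86.6%, 83.0% and 78.0% against 15.9% for SYCE3, and 47.8%, 40.6% and 43.6% against 4.67% for TEX15. They were 91.4%, 70.6% and 45.9% against 23.4% for SYCP2, 82.0%, 68.8% and 44.1% against 15.9% for SYCP1, and 4.60%, 5.45% and 2.88% against 3.74% for MEIOB.

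**Figure D3:**
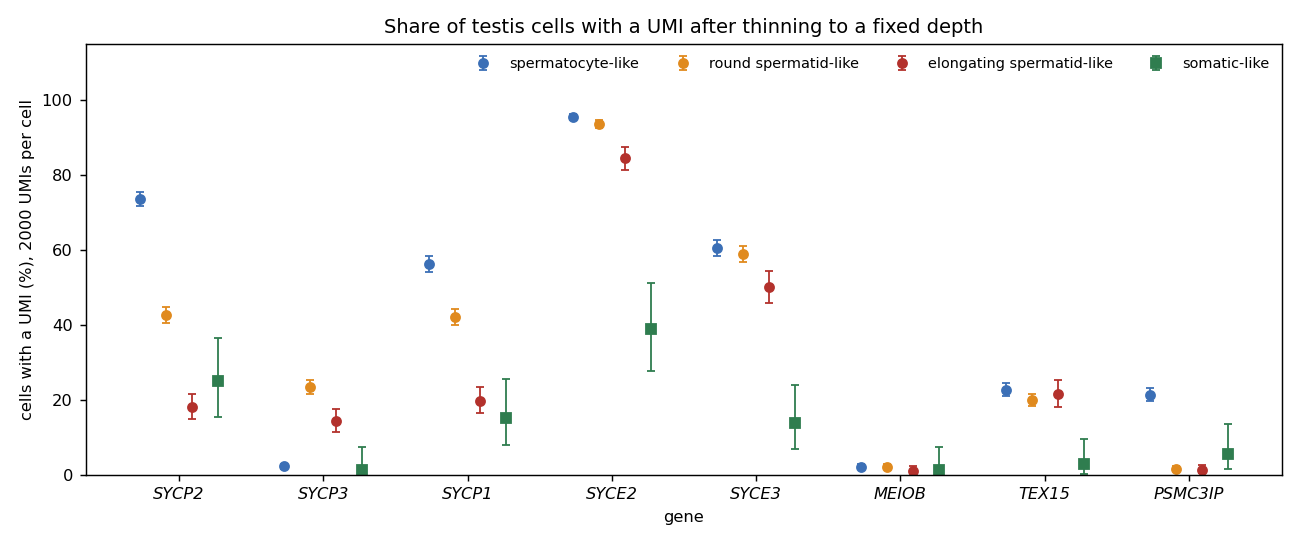
Share of testis cells with at least 1 UMI of each gene (percent, from 0) after thinning each cell to 2000 UMIs, for spermatocyte-like, round spermatid-like, elongating spermatid-like and somatic-like cells (squares); bars are 95% Clopper-Pearson intervals. SYCE2, SYCE3 and TEX15 stay above the somatic share at each stage, and SYCP3 does so in the spermatid stages alone.

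The profiles over 17 testis clusters of at least 50 cells followed the parts of the ladder only in part. Pearson correlations of log2(CPM + 10) were 0.97 between SYCP1 and SYCP2, 0.95 between SYCE3 and TEX15, 0.90 between SYCE2 and TEX15 and 0.89 between the central element genes SYCE2 and SYCE3, whereas the lateral element genes SYCP2 and SYCP3 had -0.11 and SYCP3 and PSMC3IP -0.67. These clusters share 1 library and the correlations are descriptions. They include fibroblast-like cluster 16, clusters 11 and 13 with markers of 2 lineages, and cluster 15, which was left out of the order. The correlations are therefore not of germ stages alone, and none was computed over the ordered germ clusters. Cluster 16 held 3 UMIs of SYCE3 and 1 of TEX15. Along the order SYCE3 peaked in cluster 5 and TEX15 in cluster 7. Of 6992 genes with a symbol and at least 500 testis UMIs, the profile most like SYCP3 was CATSPER4, a subunit of the sperm calcium channel (0.97), and next came SLC35D1 and COL27A1. The most like SYCP2 was SUGP2 (0.99), followed by RB1CC1 and SPATS2, and the most like SYCP1 was PDE3B (0.99), followed by UTP23 and ADAM2, which encodes a surface protein of sperm. For SYCE2 they were CLDND1 (0.98), PTPN20 and UBB, and for SYCE3 LIN7A (0.995), DKKL1, which encodes an acrosomal protein, and FAM221A. For TEX15 they were PSME4 (0.98), TRIP12 and NUP50. For PSMC3IP they were CCDC134 (0.98), CKS2, a subunit of cell-cycle kinases, and NUF2, a kinetochore protein, and for MEIOB, at its low counts, ABHD17A (0.84), YIF1A and EIF3D.

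The other genes of the pathway also differed in both directions. Of 49 measured, 42 had enough UMIs, and 7 were higher, 11 lower and 24 neither in spermatids against spermatocytes, where 34.1% of all features tested were higher and 13.8% lower, with a median log2 ratio of -0.48 beside 0.23 over all features; with size factors in place of totals, 5 were higher and 15 lower. Of 6 tested genes of the synaptonemal complex and axis, 0 were higher and 2 lower. SYCE1, a central element gene, was at 181 CPM in spermatids and 313 CPM in spermatocytes, and the axis gene HORMAD1 was lower, at 12.1 CPM in spermatids and 46.7 CPM in spermatocytes. HORMAD2 was at 18.6 CPM in spermatids and 33.2 CPM in spermatocytes and FKBP6 at 35.0 CPM in spermatids and 76.5 CPM in spermatocytes, neither called. Of 3 tested meiotic cohesin genes, REC8, the subunit that holds sister chromatids together until the divisions, was higher, at 88.9 CPM in spermatids and 2.44 CPM in spermatocytes, a ratio of 36.5 (25.8 to 53.2). It had 2.44 CPM in spermatocyte-like, 68.5 CPM in round and 165 CPM in elongating cells, with 3.86 CPM in somatic cells from 1 UMI. STAG3 was lower, at 5.47 CPM in spermatids and 15.7 CPM in spermatocytes, and SMC1B was at 121 CPM in spermatids and 148 CPM in spermatocytes. RAD21L1 had 42 UMIs in the germ clusters and was not tested.

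Among 10 tested genes of break formation and telomere attachment, 2 were higher and 1 lower. SPDYA, which ties telomeres to the nuclear envelope through CDK2, was at 784 CPM in spermatids and 665 CPM in spermatocytes, and KASH5 at 64.9 CPM in spermatids and 130 CPM in spermatocytes. TERB1 was at 45.5 CPM in spermatids and 48.5 CPM in spermatocytes, and IHO1 at 37.7 CPM in spermatids and 61.8 CPM in spermatocytes. Among 10 tested strand exchange genes, 1 was higher and 3 lower. RPA2, a subunit of the general single-strand DNA binding complex, was lower, at 754 CPM in spermatids and 3617 CPM in spermatocytes. HSF2BP was at 131 CPM in spermatids and 63.7 CPM in spermatocytes and MND1 at 59.6 CPM in spermatids and 32.9 CPM in spermatocytes, neither called. Among 13 tested crossover and mismatch repair genes, 3 were higher and 4 lower. RNF212, a regulator of crossover sites, was higher, at 93.7 CPM in spermatids and 38.5 CPM in spermatocytes. C16H1orf146 (SPO16), at 18.6 CPM in spermatids and 130 CPM in spermatocytes, and CNTD1, at 19.3 CPM in spermatids and 68.2 CPM in spermatocytes, were lower, and MSH4 was at 72.3 CPM in spermatids and 60.6 CPM in spermatocytes. Others called, listed after their values were seen, were SPO11, MEI4, CCNB1IP1 and RNF212B (higher) and TRIP13, ANKRD31, SPATA22, MLH3 and CDK2 (lower).

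**Figure D4:**
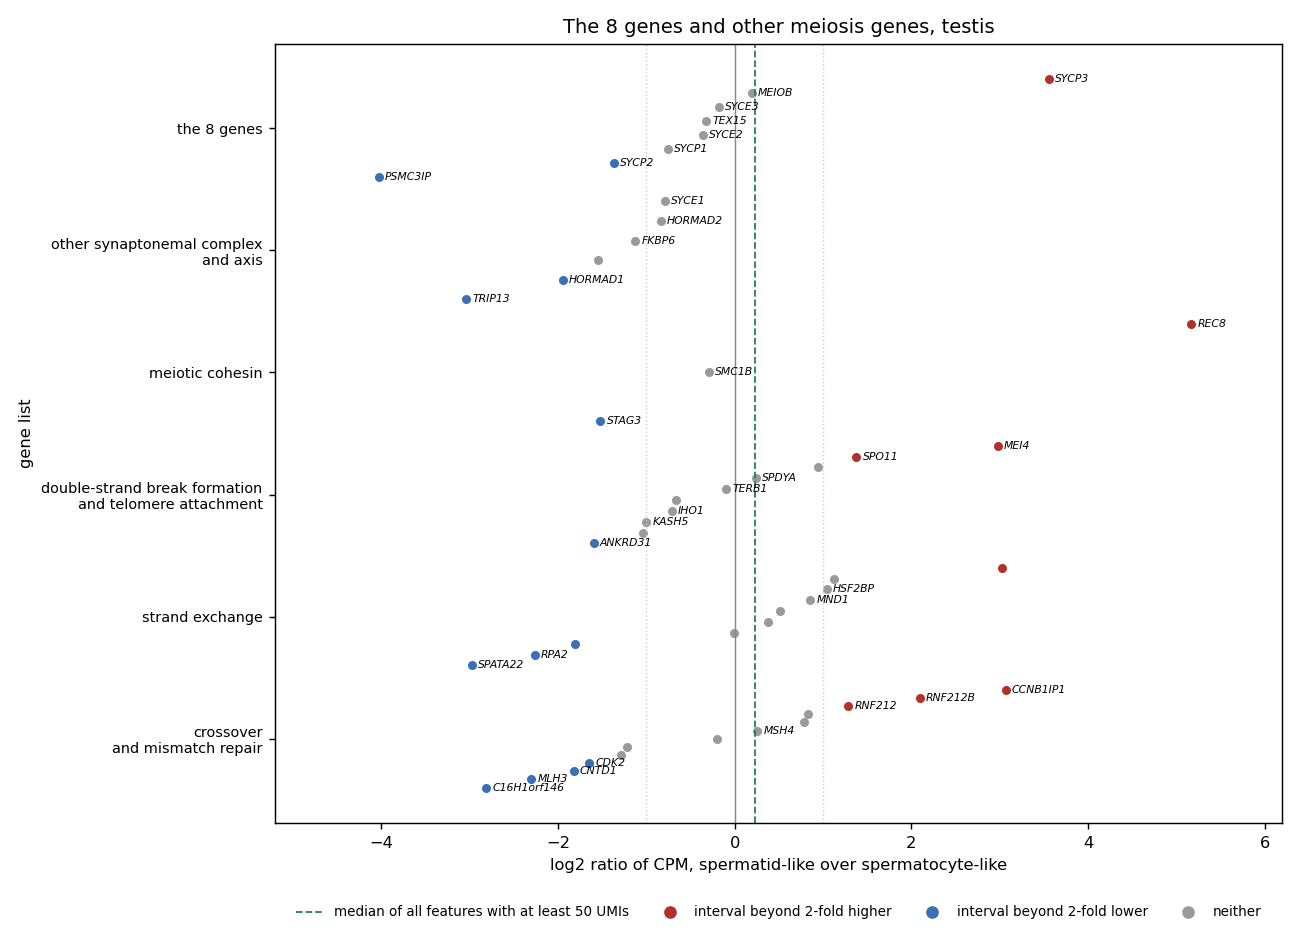
Log2 ratio of CPM in spermatid-like over spermatocyte-like testis cells (horizontal axis) for the 8 genes and for 42 other meiosis genes by list, labelled where named in the text; colour gives whether the whole 95% interval lies beyond 2-fold, dotted lines mark 2-fold and the green dashed line the median of all features (0.23). SYCP3 and REC8 lie farthest to the right and PSMC3IP farthest to the left.

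In the caput, whose label gives somatic cells, 136 cells formed a cluster with markers of spermatocytes (10340 CPM summed) and spermatids (7347 CPM), and 99 cells an elongating spermatid-like cluster (992 and 41684 CPM). In the cluster of several stages the 6 of the 8 genes that had enough UMIs were called higher than in the named somatic cells, and 0 lower, beside 12.9% and 23.3% of 12184 features. Each of the 6 passed the minimum through this cluster, where it was high, so nothing is read from the count. SYCP2 was at 623 CPM in the germ cells of several stages and 26.5 CPM in somatic cells, and SYCP1 at 350 CPM in these germ cells and 43.4 CPM in somatic cells. SYCE2 was at 994 CPM in these germ cells and 22.4 CPM in somatic cells, and SYCE3 at 392 CPM in these germ cells and 12.98 CPM in somatic cells. PSMC3IP was at 119 CPM in these germ cells and 6.66 CPM in somatic cells, and TEX15 at 127 CPM in these germ cells and 23.9 CPM in somatic cells. The ratios ran from 5.32 (3.97 to 7.08) for TEX15 to 44.4 (36.7 to 54.1) for SYCE2. SYCP3, at 50.2 CPM in these germ cells and 12.3 CPM in somatic cells, had 30 UMIs in the cluster, under the minimum of 50, and MEIOB was at 11.7 CPM in these germ cells and 11.6 CPM in somatic cells. This cluster was 1.43% of caput cells and held 4.52% of all UMIs, but 63.4% of the UMIs of SYCE2, 50.7% of those of PSMC3IP, 47.6% of those of SYCE3 and 42.3% of those of SYCP2. It held 17.7% of the UMIs of SYCP1, 11.7% of those of TEX15 and 8.96% of those of SYCP3, and 3.54% of those of MEIOB, below its share of all UMIs. Thinned to 500 UMIs, the share of cells with SYCE2 was 31.6% in the cluster and 0.955% in somatic cells, and that with SYCP2 23.5% in the cluster and 1.38% in somatic cells, with median depths of 2114 UMIs in the cluster and 1224 UMIs in somatic cells before thinning. Without thinning the shares were 71.3% in the cluster and 2.92% in somatic cells for SYCE2, and 60.3% in the cluster and 3.14% in somatic cells for SYCP2.

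The elongating spermatid-like cells of the caput held between 0 and 31 UMIs of each gene. SYCP2 was at 51.2 CPM in the elongating cells and 623 CPM in the cells of several stages, and SYCP1 at 70.4 CPM in the elongating cells and 350 CPM in the cells of several stages. SYCE2 was at 198 CPM in the elongating cells and 994 CPM in the cells of several stages, and SYCE3 at 109 CPM in the elongating cells and 392 CPM in the cells of several stages. PSMC3IP had 0 UMIs in the elongating cells, which allows up to 19.2 CPM with the floor of 3 counts taken over the group, against 119 CPM in the cells of several stages. The interval of that ratio, which also covers the counting error of the 71 UMIs in the several-stage cluster, puts it at least 4.90-fold lower. TEX15 was at 109 CPM in the elongating cells and 127 CPM in the cells of several stages, a ratio of 0.855 (0.474 to 1.46). Of the 8 genes 6 had enough UMIs, each through the several-stage cluster, and 0 were called higher and 5 lower, beside 10.4% and 40.7% of 2481 features. The median log2 ratio of those features was -1.67, so lower levels were common among them and nothing is read from the count. In testis the ratio of elongating cells over spermatocyte-like and round spermatid-like cells together was 0.587 (0.567 to 0.609) for SYCE2, beside 0.1995 (0.134 to 0.286) in caput, and 0.871 (0.779 to 0.971) for TEX15; the earlier cells of the 2 libraries are not the same mixture of stages. Against the named somatic cells of the caput, 1 of the 8 genes had enough UMIs, MEIOB, through its 68 somatic UMIs. Of the 8 genes, 0 were called higher and 0 lower, beside 2.33% and 1.59% of 9295 features. Each of the 8 genes had fewer than 50 UMIs in the elongating cells, although the intervals for SYCE2 (5.79 to 13.2), SYCE3 (4.64 to 14.3) and TEX15 (2.58 to 7.55) lay beyond 2-fold.

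Most caput and corpus cells lay in clusters that no marker list could name. In the caput these 5251 cells had 3 of the 8 genes called higher than in named somatic cells and 0 lower, beside 21.5% and 11.3% of 18261 features. SYCP1 was at 107 CPM in unnamed cells and 43.4 CPM in somatic cells, a ratio of 2.47 (2.14 to 2.87), and TEX15 at 63.8 CPM in unnamed cells and 23.9 CPM in somatic cells, a ratio of 2.67 (2.20 to 3.25). SYCP3 was at 35.0 CPM in unnamed cells and 12.3 CPM in somatic cells, a ratio of 2.85 (2.18 to 3.76). The unnamed cells held 68.7% of the SYCP3, 64.3% of the TEX15, 62.1% of the MEIOB and 59.7% of the SYCP1 UMIs of the caput, with 49.8% of all UMIs. The other 4 genes lay below that share there, at 39.2% for SYCP2, 33.5% for SYCE3, 21.4% for PSMC3IP and 19.1% for SYCE2. In caput clusters 0, 1 and 2 the very long genes took 2.57%, 2.04% and 1.09% of UMIs and ribosomal protein genes 1.45%, 5.18% and 10.7%, and the part of either in these levels was not tested. In the corpus no germ-like cluster was found. Its 4840 unnamed cells had 0 of the 8 genes called higher or lower than named somatic cells, where 5.18% and 18.8% of 11014 features were, and only 4 of the 8 had enough UMIs. SYCP1 was at 124 CPM in unnamed cells and 51.9 CPM in somatic cells, a ratio of 2.38 (1.89 to 3.01), and TEX15 at 62.6 CPM in unnamed cells and 29.0 CPM in somatic cells, a ratio of 2.16 (1.57 to 2.98). SYCP2 was at 53.7 CPM in unnamed cells and 29.5 CPM in somatic cells, and SYCP3 at 37.5 CPM in unnamed cells and 20.1 CPM in somatic cells. The unnamed corpus cells also took 2.47% of their UMIs from the very long genes.

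**Figure D5:**
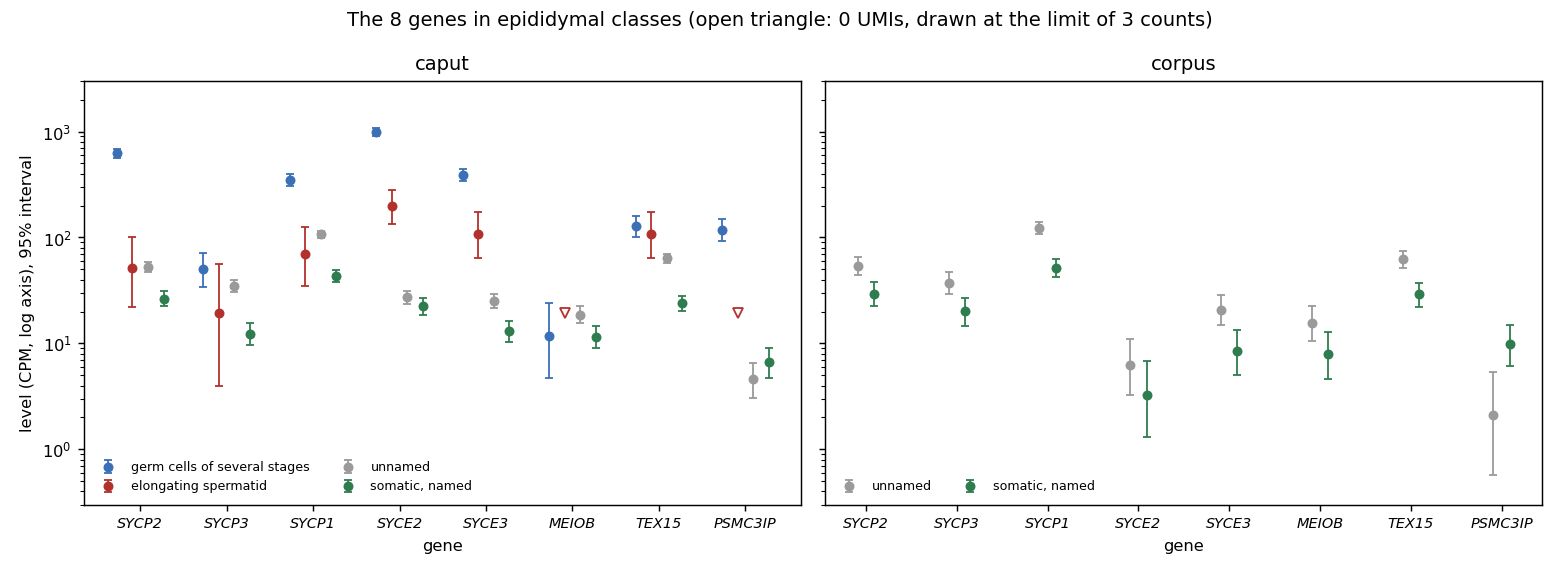
Level of the 8 genes (CPM, log axis, with 95% Poisson intervals) in caput (left) and corpus (right) by class; an open triangle marks 0 UMIs, drawn at the limit of 3 counts. In the caput SYCP2, SYCP1, SYCE2, SYCE3 and PSMC3IP are highest in the germ cells of several stages, while SYCP3 and MEIOB differ less between classes.

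Over whole libraries 1 of the 8 genes, SYCE2, was called higher in caput than in corpus and 0 lower, beside 7.0% and 1.77% of 17762 features. It was at 71.0 CPM in caput and 4.59 CPM in corpus, a ratio of 15.5 (9.85 to 25.8). Of its caput UMIs, 63.4% lay in the germ cells of several stages and 3.31% in the elongating cells. SYCE3 was at 37.3 CPM in caput and 14.2 CPM in corpus, a ratio of 2.61 (1.99 to 3.49), and SYCP2 at 66.7 CPM in caput and 40.3 CPM in corpus, a ratio of 1.65 (1.40 to 1.96). SYCP1 was at 89.5 CPM in caput and 84.5 CPM in corpus, SYCP3 at 25.4 CPM in caput and 28.5 CPM in corpus, and TEX15 at 49.4 CPM in caput and 44.0 CPM in corpus. MEIOB was at 15.0 CPM in caput and 11.6 CPM in corpus, and PSMC3IP at 10.6 CPM in caput and 6.04 CPM in corpus.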

How the data were processed

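UMI counts were taken as deposited by the authors, whole numbers with no normalization, written by PISA 0.12 per the file headers. Cell Ranger 2.1.1 is listed in the submitters' processing notes, with no role stated. The sources used here give neither aligner nor genome build. A RefSeq gene table (assembly EquAss-T2T_v2) was used for names and overlaps only, and gave symbols to 749 of 18266 locus features. Barcodes are renumbered in the files, so barcodes shared between libraries could not be counted; the features include no gene of the mitochondrial genome. Cells with at least 200 genes were kept. Doublet scoring against simulated doublets removed 74 testis barcodes. It marked 0 caput barcodes and 2 of the corpus, so it did not work in the epididymis, where doublets remain. That left 8536, 9478 and 9607 cells. Each library was clustered on its own (2000 variable genes without the 8 genes and the 49 other meiosis genes, 30 components, 15 neighbours, Leiden resolution 1.0, seed 0), giving 19, 17 and 10 clusters.

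The 8 genes, the gene lists and the markers were chosen with earlier results of these data known, and the thresholds for naming clusters were set after the clusters were seen: at least 3 markers, each 2-fold above the median cluster with 10 CPM added, in 5% of cells, with 5 UMIs, and a mean log2 ratio of 0.6. Clusters that met the naming thresholds for both spermatocytes and spermatids, or held markers of 2 lineages, were kept apart. An elongating spermatid-like cluster was also kept apart if its summed spermatocyte markers reached 0.6 times the median of the spermatocyte-like clusters. Round spermatid-like clusters were not held to that level, and cluster 2, with 9582 CPM of these markers, stayed in its class. A cluster stayed unnamed if its very long genes took at least 1.5 times the library's median share and its markers averaged under 2-fold. Of 30 listed very long genes, 29 were measured. Counts were summed per class. Intervals are exact Poisson for CPM, exact conditional binomial for ratios and Clopper-Pearson for shares, at 95%, and cover counting error only; no p-value was computed. Named genes were all 8 members, up to 4 of each list with the most UMIs in testis germ clusters, and the 3 most like profiles per member; results of some genes are not reported here. The calling was tested on simulated data. The tools were scikit-learn 1.9.0, scikit-image 0.26.0, igraph 0.11.9 and leidenalg 0.10.2 for scoring and clustering, and scipy 1.17.1, numpy 2.4.6, pandas 2.3.3 and matplotlib 3.10.9 for the rest, in Python 3.11.15.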

Additional observations from a re-analysis of the deposited data

How the results depend on the processing

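No paired analysis was possible because each tissue has 1 library and no replicate numbers. Each of the 8 ratios of spermatids over spermatocytes was recomputed under 13 alternatives. No ratio whose main interval excluded 1 changed direction in any of them. By the 2-fold call, 1 gene was higher and 2 were lower in each. In the main setting 34.1% of 14958 features were higher and 13.8% lower. SYCP3 ran between 3.97, with the unnamed germ clusters all added to the spermatocytes by the marker order, and 13.4. PSMC3IP ran between 0.0550 and 0.101, the higher value under that same setting. That setting and round spermatids alone were chosen after seeing the data. The other 6 ratios moved by at most 1.16 times. Size factors shifted the log2 ratios by -0.15 and gave 5 higher and 15 lower of the other meiosis genes, against 7 and 11. With intervals beyond 4-fold there were 4 higher and 4 lower. The shares of all features under these settings were not computed, so nothing is read from these counts. In the epididymis 6 genes were called higher in caput germ cells, beside 12.9% of 12184 features. Over whole libraries 1 was called higher in caput, beside 7.0% of 17762 features. Shares of spermatid cells above the somatic interval were found for 5 genes, and for 6 with 1000 UMIs per cell or no thinning. The same count over all features was not made. Without the macrophage-like cells in the somatic background, also chosen after seeing the data, 5 genes were called higher in spermatids than in somatic cells. This stood beside 16.8% of 9098 features, against 4 genes and 16.1% of 9218 features with those cells. In the comparisons with somatic cells each gene tested passed the minimum through its germ UMIs, so nothing is read from these counts. Few UMIs were counted for MEIOB in every library, with 430 in testis, 198 in caput and 48 in corpus. The part of depth in these low counts was not tested. Counts were also limited in the 107 somatic testis cells, the 99 elongating caput cells and the corpus. The wide range for SYCP3 follows from which clusters count as spermatocytes, as its level differs across the unnamed clusters.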

Other observations

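There were 3 testis clusters left out of the stage order. Cluster 15, 59 cells with markers of elongating spermatids, was kept apart because its summed spermatocyte markers, 9619 CPM, reached 0.6 times the median of the spermatocyte-like clusters. Those markers were little raised over the median cluster, with mean log2 ratios of 0.249 for prophase and 0.045 for late and division. Round spermatid-like cluster 2, to which this limit was not applied, held 9582 CPM of them. Cluster 15 had SYCP2 at 397 CPM (335 to 467), SYCP3 at 87.6 CPM (59.9 to 124), SYCE2 at 1567 CPM (1441 to 1700) and PSMC3IP at 32.9 CPM (17.0 to 57.4). It also had SYCP1 at 315 CPM (260.0 to 378), SYCE3 at 490.3 CPM (421 to 568), TEX15 at 142 CPM (106 to 187) and MEIOB at 13.7 CPM (4.45 to 32.0). The 389 cells of clusters 11 and 13, which carried markers of T or NK cells or of fibroblasts beside germ markers, had SYCP2 at 476 CPM, SYCP3 at 61.1 CPM, SYCE2 at 1618 CPM and PSMC3IP at 44.3 CPM, with SYCP1 at 347 CPM, SYCE3 at 445 CPM, TEX15 at 129 CPM and MEIOB at 8.65 CPM. Among the somatic cells, the 21 macrophage-like cells had SYCE2 at 857 CPM (645 to 1115) and SYCP2 at 358 CPM (227 to 538), above the 55 fibroblast-like cells at 212 CPM (139 to 311) and 89.9 CPM (44.9 to 161), and SYCP3 had 0 UMIs in macrophage-like and T or NK-like cells, which allows levels of up to 46.7 CPM in macrophage-like and 41.2 CPM in T or NK-like cells.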
